A study of Mus musculus with 16 samples.

Results

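R-loops in long noncoding RNA (lncRNA) genes were described from 8 peak lists of DNA:RNA hybrid immunoprecipitation sequencing (DRIP-seq) of mouse NIH/3T3 fibroblasts. A peak was taken as a member where its summit, the position of highest coverage, lay in a gene of type lincRNA, antisense, processed_transcript, bidirectional_promoter_lncRNA or sense_intronic and in no protein-coding gene (GENCODE M21 annotation, genome build GRCm38). Chromosomes 1 to 19 were used, and the genes Malat1 and Neat1 were left out. By this rule 4473 of 77297 peaks were members. Merged over the 8 lists, they formed 2888 regions of 49028 on the same chromosomes, or 5.89%.

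The cells were wild type (WT) or had lost Xpo4, which encodes a karyopherin (exportin 4) that carries cargo out of the nucleus, by CRISPR-Cas9 editing (KO). Both copies of the gene carried the same edit. Genomic DNA of both genotypes was cut with MseI, DdeI, AluI and MboI, treated with RNase R (RNase R+) or left without it (RNase R-), and precipitated with S9.6, an antibody against DNA:RNA hybrids. RNase R digests RNA that has a free end, so circles resist it. The 4 groups (KO RNase R-, KO RNase R+, WT RNase R-, WT RNase R+) had 2 replicates each, and each replicate had its own peak list. The study asked how the loss of Xpo4 changes R-loops and which of them hold circular RNA. No more than 1 KO line was described, so that effects of the line and of the gene cannot be told apart, and no source says whether replicates were separate cultures. The p-values below therefore measure the spread between these lists, which may be technical.

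An R-loop forms where RNA pairs with a DNA strand and displaces the other strand. R-loops form during transcription, and G-rich RNA and purine-rich RNA make stable hybrids with DNA. lncRNA genes are transcribed like coding genes but their RNA encodes no known protein. Some act in imprinting, some host small nucleolar RNAs (snoRNAs) or microRNAs in their introns, and others lie beside genes of development or growth. The peak lists did not measure expression, so the level of each lncRNA in these cells was not known here.

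The sequences at 4 strongly enriched regions are shown first. By the lower replicate, they had the highest KO RNase R- folds among the leading regions searched that had no near match elsewhere. Other member regions were not searched for matches. Gas5 and Snhg17 host snoRNAs, 5031425E22Rik is a lincRNA beside a coding promoter, and Lppos starts opposite to Lpp. Each is the GRCm38 plus strand, 100 bases on either side of the highest summit, with the sites of the 4 restriction enzymes in capitals (TTAA for MseI, CTNAG for DdeI, AGCT for AluI, GATC for MboI).
Gas5 chr1:161035820-161036020: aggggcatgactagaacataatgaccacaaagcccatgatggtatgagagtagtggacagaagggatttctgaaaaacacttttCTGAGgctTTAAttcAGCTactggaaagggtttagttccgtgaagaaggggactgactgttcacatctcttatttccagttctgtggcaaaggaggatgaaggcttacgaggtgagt
Snhg17 chr2:158355262-158355462: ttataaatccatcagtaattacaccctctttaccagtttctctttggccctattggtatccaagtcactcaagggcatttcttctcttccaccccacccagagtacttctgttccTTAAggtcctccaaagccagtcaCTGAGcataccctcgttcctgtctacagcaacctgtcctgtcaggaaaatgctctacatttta
5031425E22Rik chr5:23433040-23433240: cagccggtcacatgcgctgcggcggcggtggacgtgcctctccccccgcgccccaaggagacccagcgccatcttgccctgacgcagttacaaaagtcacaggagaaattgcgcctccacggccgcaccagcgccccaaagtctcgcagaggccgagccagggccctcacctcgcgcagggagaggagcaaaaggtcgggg
Lppos chr16:24393174-24393374: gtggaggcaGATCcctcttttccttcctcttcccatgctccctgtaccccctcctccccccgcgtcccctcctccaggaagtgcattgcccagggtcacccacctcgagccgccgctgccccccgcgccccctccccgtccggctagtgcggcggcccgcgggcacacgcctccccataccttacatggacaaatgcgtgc

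The next 3 windows show the long purine or pyrimidine runs that 66.8% of member regions (1930 of 2888) had within 150 bp of the summit, with runs of at least 20 bases in capitals. The Lppos window above also holds a run, of 23 bases. Pantr1 lies beside Pou3f3, Dleu2 hosts the microRNAs of the miR-15a and miR-16-1 cluster, and Pvt1 lies downstream of Myc.
Pantr1 chr1:42670795-42670995: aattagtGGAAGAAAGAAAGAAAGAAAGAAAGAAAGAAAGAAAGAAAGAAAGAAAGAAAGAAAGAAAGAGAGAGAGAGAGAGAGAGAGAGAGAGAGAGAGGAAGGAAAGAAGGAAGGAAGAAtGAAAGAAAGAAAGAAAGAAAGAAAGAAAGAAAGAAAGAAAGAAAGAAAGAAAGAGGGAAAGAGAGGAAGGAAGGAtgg
Dleu2 chr14:61618071-61618271: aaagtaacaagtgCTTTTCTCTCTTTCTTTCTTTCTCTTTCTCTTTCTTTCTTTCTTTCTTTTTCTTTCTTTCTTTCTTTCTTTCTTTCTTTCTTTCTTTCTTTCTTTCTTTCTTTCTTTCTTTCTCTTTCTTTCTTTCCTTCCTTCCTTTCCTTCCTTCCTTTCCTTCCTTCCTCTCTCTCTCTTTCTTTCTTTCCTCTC
Pvt1 chr15:62276976-62277176: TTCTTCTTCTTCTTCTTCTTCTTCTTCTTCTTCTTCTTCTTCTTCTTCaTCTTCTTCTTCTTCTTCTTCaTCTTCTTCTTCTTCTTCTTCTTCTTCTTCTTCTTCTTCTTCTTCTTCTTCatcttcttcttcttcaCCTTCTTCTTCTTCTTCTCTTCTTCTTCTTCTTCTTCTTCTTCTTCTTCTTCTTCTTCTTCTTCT

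The lists differed in size by orders of magnitude. The KO RNase R- lists held 1457 and 1802 member peaks, the KO RNase R+ lists 382 and 368, the WT RNase R- lists 266 and 165 and the WT RNase R+ lists 14 and 19. No KO list was smaller than a WT list of the same treatment, and no RNase R+ list was larger than an RNase R- list of its genotype. The geometric mean was 7.73-fold higher in KO than in WT without RNase R and 23.0-fold higher with it, or 13.3-fold over both treatments. In the exact permutation test of genotype within treatments the two-sided p was 0.0556 (0.103 after Benjamini-Hochberg adjustment over 13 tests), the smallest p that 36 arrangements allow. With RNase R the lists were 4.32-fold smaller in KO and 12.8-fold smaller in WT, with the same exact permutation p of 0.0556 (adjusted 0.103). On the log2 scale the RNase R effect went from -2.90 to -1.68 with peaks of at least 10-fold enrichment only, and without peaks whose expected level is over 3 times the background the genotype effect went from 3.74 to 4.60 and the RNase R effect to -3.72.

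All peaks, not only those in lncRNA genes, moved this way. Over chromosomes 1 to 19 the same lists held 25521, 31094, 6202, 5830, 3787, 2096, 244 and 319 peaks. Members made up 5.71% and 5.80% of the KO RNase R- lists (95% Wilson intervals 5.43 to 6.001 and 5.54 to 6.06), close to the 6.05% of the DNA (145 Mb of 2396 Mb) that the lncRNA genes cover. The shares were 6.16% and 6.32% in KO RNase R+, 7.03% and 7.88% in WT RNase R-, and 5.74% and 5.96% in WT RNase R+. The WT RNase R- shares were the highest of the 8, and their intervals (6.25 to 7.88 and 6.80 to 9.11) lay above the share of DNA. Over both treatments the share differed by -0.652 percentage points between KO and WT (exact permutation p = 0.333, adjusted 0.394), and with RNase R by -0.558 points (p = 0.333, adjusted 0.394). Intervals cover counting error only.

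The libraries also differed in background. The caller's background level, taken as the lowest expected coverage of a list, was 0.843 to 0.924 fragments per position in the KO lists and 0.425 to 0.558 in the WT lists. KO peaks were thinned to the background of the same-numbered WT list, and those below its lowest −log10 p were dropped. This left 1044 and 1078 members without RNase R and 181 and 234 with it, against 266, 165, 14 and 19 in WT. Thinning moved the genotype difference from 3.74 to 3.00 on the log2 scale. It matched the background level only. The study lists several times more uniquely mapped reads for the KO than for the WT RNase R- immunoprecipitates. It also lists several times more for WT RNase R+ than for WT RNase R-. The WT RNase R+ totals lay on either side of the KO RNase R+ totals. Read totals were not matched. The part of other library differences was not tested.

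**Figure D1:**
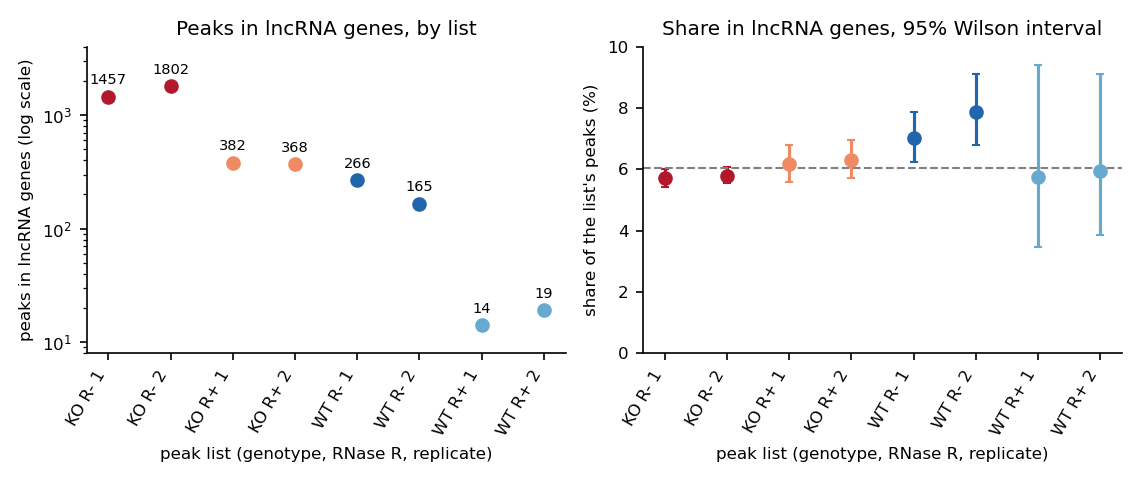
Left, number of peaks in lncRNA genes in each of the 8 lists on a log axis. Right, members as a percent of all peaks of the list on chromosomes 1 to 19 with 95% Wilson intervals, and the share of DNA in lncRNA genes as a dashed line. Numbers ran from 14 to 1802 while the shares stayed between 5.71% and 7.88%.

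Peaks per Mb in lncRNA genes were compared with those in coding genes and in DNA outside genes, and neither difference passed the test over the 8 lists. The log2 ratio of the density in lncRNA DNA to that in coding DNA was 0.06 ± 0.28 (SD, n = 8 lists) and positive in 4 of 8 lists (exact sign-flip p = 0.516, adjusted 0.516). The sign differed by group: lncRNA DNA had 10.1 and 12.4 peaks per Mb against 11.5 and 14.0 in KO RNase R-, and 1.84 and 1.14 against 1.39 and 0.772 in WT RNase R-. Against DNA outside genes it was 0.07 ± 0.16 and positive in 6 of 8 (exact sign-flip p = 0.219, adjusted 0.355). Regions per Mb were alike in lincRNA genes (19.5, from 2067 regions), antisense genes (20.6, 448 regions), processed transcripts (21.5, 385 regions) and bidirectional promoter lncRNAs (23.3, 44 regions). Sense intronic genes, which cover little DNA, held 1 region.

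Of 7051 lncRNA genes with DNA outside coding genes, 1710 (24.3%) held a region, and 1073 of these held 1. Genes with a region were longer, at a median of 33428.5 bp against 5764 bp for genes without. Among genes of 1 to 10 kb 8.11% held a region, among those of 10 to 100 kb 39.2%, and among those over 100 kb 88.7%. Per length these classes were alike, with 2.24, 2.08 and 1.82 regions per 100 kb. The median region was 263 bp long, and the longest 5063 bp.

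Most regions were found in a single list, few were found in both genotypes, and the counts followed those of all regions. Of the 2888 regions, 1799 (62.3%) were in 1 list only, against 63.6% of all 49028 regions. In both KO RNase R- lists there were 804 (27.8%; all regions 28.2%), in both KO RNase R+ lists 139 (4.81%; 4.48%), in both WT RNase R- lists 55 (1.90%; 1.2%) and in both WT RNase R+ lists 10 (0.346%; 0.29%). Replicates 1 and 2 shared 55.3% and 44.7% of their member regions with each other in KO RNase R- (54.4% and 44.6% over all regions), 36.8% and 38.1% in KO RNase R+ (35.9% and 38.2%), 20.8% and 34.0% in WT RNase R- (15.7% and 28.5%) and 71.4% and 55.6% in WT RNase R+ (61.2% and 45.7%). Regions of KO lists only numbered 2505 (86.7%; 88.8%), regions of WT lists only 202 (6.99%; 6.04%) and regions of both genotypes 181 (6.27%; 5.15%). In all 8 lists there were 2 (0.0693%; 0.0653%).

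Read by group without overlap, 719 regions (24.9%; 25.9% of all regions) were in both KO and no WT list without RNase R, and 23 (0.796%; 0.379%) in both WT and no KO list. With RNase R the numbers were 129 (4.47%; 4.27%) and 1 (0.0346%; 0.114%). Within KO, 594 regions (20.6%; 20.6%) were in both RNase R- lists and no RNase R+ list, and 40 (1.39%; 0.614%) in both RNase R+ lists and no RNase R- list. The expected level, the caller's local estimate of coverage without enrichment, is raised where reads pile up in any case. A level over 3 times the background was seen at 15 of the 40 (37.5%) and at 5.56% of the 594, and a purine or pyrimidine run at 45.0% and 76.4%. These shares are descriptions, since the sets were chosen by presence. Most of the 15, and several of the 23, lay in Gm26870 or in the locus of 2700054A10Rik and AC174800.1. Neighbouring regions of the same locus were counted separately, so they are not independent. The share of raised levels over all regions was not computed for these sets.

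Among regions present in all 4 KO lists, 80 were members. In 31 of them (38.75%; 38.7% of the 1466 such regions of the genome) both RNase R+ folds were below both RNase R- folds, and in 12 (15%; 10.6%) both were above. The median log2 ratio of fold enrichment, RNase R+ to RNase R-, was -0.28 for the members and -0.24 for all 1466. Fold enrichment is the caller's ratio of coverage to expected level within a list, and it compares lists of different background here only as a description.

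Gas5, whose RNA accumulates when growth stops and which hosts snoRNAs, was the most enriched member at a transcript start by its lower KO RNase R- replicate. Its region (chr1:161035477-161036698) had fold enrichments of 21.2 and 25.7 in KO RNase R- and 12.5 and 16.7 in KO RNase R+, and no peak in any WT list. The KO folds without RNase R were both above those with it. The closest summit of any list lay 5 bp from the start of an annotated shorter transcript, inside the gene body. The printed window is centred on another summit. A further region (chr1:161037350-161038294) followed with 5.43 and 7.91 in KO RNase R- only.

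5031425E22Rik showed the same order at its start (chr5:23432885-23433305), with 19.8 and 23.4 in KO RNase R-, 7.41 and 8.08 in KO RNase R+ and no WT peak. The closest summit of any list lay 8 bp from a transcript start, and the smallest distance to a coding start was 1140 bp. Gt(ROSA)26Sor, the antisense transcript of the ROSA26 locus used for transgenes, had 18.97 and 19.999 in KO RNase R- and 9.32 and 10.1 in KO RNase R+ (chr6:113076101-113077189), and again no WT peak. Lppos (chr16:24393071-24394060) had 19.7 and 28.0 without RNase R, 9.77 in KO RNase R+ replicate 1 and no peak in replicate 2. Gm7967 (chr1:98590053-98590734) had 17.4 and 17.4, then 12.99 in KO RNase R+ replicate 1 alone, and its sequence had 7 near matches elsewhere on 5 chromosomes. Of these, Lppos lay 222 bp and Gt(ROSA)26Sor 376 bp from a coding start at the closest summit. Hybrids of the coding transcript therefore cannot be told apart from those of the lncRNA.

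Summits within 1000 bp of a transcript start of the lncRNA gene were fewer than in coding genes. They were 7.48% and 7.38% of members in KO RNase R-, 7.33% and 7.07% in KO RNase R+, 4.14% and 4.24% in WT RNase R-, and 0 of 14 and 0 of 19 in WT RNase R+, which allow shares of up to 21.4% and 15.8%. Coding gene peaks had 14.7%, 14.6%, 17.2%, 14.3%, 5.00%, 7.06%, 7.22% and 7.32% in the same order. The members were lower in 8 of 8 lists, with a mean difference of -6.22 ± 2.91 percentage points (SD; exact sign-flip p = 0.00781, adjusted 0.0339). DNA within 1000 bp of any start of the class made up 6.19% of lncRNA DNA and 7.80% of coding DNA. With any lncRNA start counted, 8.30%, 8.16%, 7.85% and 8.15% of members were near a start in the KO lists. For coding gene peaks only starts of the gene itself were counted. In the KO lists both classes lay above their share of DNA, and the members by less.

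The share near starts was 5.22 points higher in KO than in WT (exact permutation p = 0.0556, adjusted 0.103), with all 4 KO lists above all 4 WT lists. It was 7.43% against 4.19% without RNase R, and 7.20% against 0% with it. Only 11 and 7 peaks were near a start in the WT RNase R- lists. The WT RNase R+ values are counts of 0 whose upper limits lie above every KO share, so no difference is detectable there, and the mean over treatments rests in part on them. Most members lay in introns, from 87.4% to 94.7% of each list, and 2.63% to 7.14% in exons away from starts, where 4.98% of lncRNA DNA lies.

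The 64 near-start regions found in both KO RNase R- lists differed in sequence from the 740 others found in both. Their GC content was 47.7% ± 11.3 (SD over regions) against 41.8% ± 6.90, and 57.8% against 79.1% had a purine or pyrimidine run. Of the 64, 16 were in a KO RNase R+ list, 6 in both and 3 in a WT list. A coding transcript started within 1000 bp of 8 of them.

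lncRNA genes of known role were taken in 4 lists, which were drawn up with earlier results of these data known. Of 23 small RNA hosts with DNA outside coding genes, 7 held 21 regions, or 2.95 per 100 kb against 1.99 over all lncRNA genes. Snhg17 had its strongest region in an exon (chr2:158355193-158355669), with 20.3 and 22.7 in KO RNase R-, 9.36 in KO RNase R+ replicate 1 and no other peak. Snhg1, another snoRNA host, had 2 and 3 peaks in KO RNase R+ and 1 and 1 in KO RNase R-. Its 4 regions lay within chr19:8723510-8726032, and the first had 6.95 in KO RNase R- replicate 1 and 8.32 and 5.11 in KO RNase R+. The last had 4.22 in KO RNase R- replicate 2 and 7.94 in KO RNase R+ replicate 2.

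The microRNA hosts of this list were Dleu2, Mir99ahg and Mir155hg. Dleu2 had 9.77 and 7.38 at the pyrimidine run shown above (chr14:61618032-61618302), of which 188 bases in the printed window were unbroken, and 6.08 at a different region in WT RNase R- replicate 1. Mir99ahg, host of the miR-99a and let-7c cluster, held 6 regions with folds from 5.43 to 8.44, all in KO RNase R-. Mir155hg, host of miR-155, had 6.06 and 5.51 at a GC-rich window (74.6% GC). Snhg20 had 7.27 and 7.58.

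Of the 4 lists, the one for growth and DNA damage was the densest, with 31 regions in 7 of 10 genes, or 4.81 per 100 kb. Most of these lay in Pvt1 (13), Lncpint (7) and Carmn (7), so this density depends on which genes were listed. The lists were not tested against each other. Carmn, host of miR-143 and miR-145 in smooth muscle and fibroblast-like cells, held 7 regions, or 44.0 per 100 kb. Its strongest region had 15.6 and 16.8 in KO RNase R- and 10.4 and 14.3 in KO RNase R+, and no WT list had a peak in the gene. Lncpint, a p53-induced lncRNA of 137924 bp, held 7 regions. Those at chr6:31084945-31085602 and chr6:31085890-31086605 lay near its distal end, 2225 and 1215 bp from annotated transcript starts at the closest summits. The region at chr6:31107375-31108184 lay in an intron, 112304 to 113114 bp from the gene's start. The region at chr6:31084945-31085602 had 13.1 and 11.2 in KO RNase R- and 6.005 and 13.4 in KO RNase R+. A region at chr6:31216568-31217351 with 75.1% GC at the summit had 10.0 and 9.36 in KO RNase R- alone. Tug1 held 1 region, with 6.33 in KO RNase R- replicate 2, and 2900097C17Rik, the mouse Norad gene, held 1 with 6.41 and 7.91 in the KO RNase R- lists. Trp53cor1, a p53 target also called lincRNA-p21, had a single peak of 5.82 in KO RNase R+ replicate 2.

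Pvt1 held 13 regions, of which 10 and 6 were in the KO RNase R- lists. The GAA and TTC repeat printed above (chr15:62276797-62277406) was its only region in both KO RNase R+ lists, with 10.5 and 13.01 against 6.602 and 7.01 without RNase R. This was the opposite order to Gas5. In WT, 1 peak of 7.44 was found, at another pyrimidine run (chr15:62327844-62328511).

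**Figure D2:**
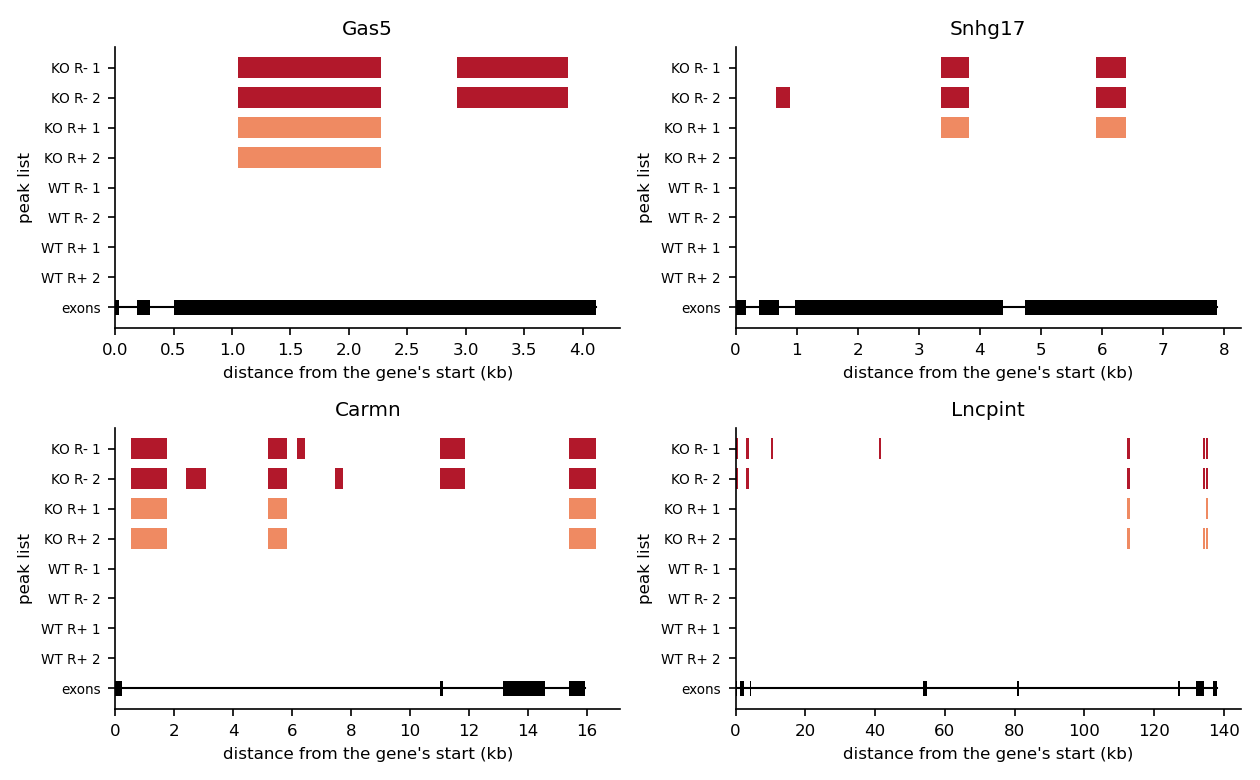
Peaks of each list along 4 lncRNA genes, by distance from the gene's start in kb; coloured boxes are the merged regions in lists that hold them and black boxes are exons of any transcript. KO lists hold peaks in each gene, and the 4 WT lists hold none.

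Imprinted genes were covered like other lncRNA genes. Of 7 with DNA outside coding genes, 5 held 17 regions, or 2.005 per 100 kb. Snhg14, a long transcript that hosts snoRNAs and runs antisense to Ube3a, held 10 of these and was the only imprinted gene with WT peaks. Its region at chr7:59760056-59760404 had 5.67 and 7.87 in KO RNase R-, 13.01 and 13.6 in KO RNase R+ and 11.9 and 14.7 in WT RNase R-. The 2 KO RNase R- folds were the lowest of the 6. The sequence had 57 near matches elsewhere, all on the same chromosome, so the position within the cluster is uncertain. Airn, which silences Igf2r in cis, had 5.10 and 8.36 in KO RNase R- and 7.68 and 6.44 in KO RNase R+ (chr17:12833964-12834205). Meg3, Rian and Mirg of the Dlk1 to Dio3 domain had folds from 5.10 to 8.97, all in KO RNase R-.

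Developmental lncRNA genes held 20 regions in 8 of 17 genes (2.04 per 100 kb), and 11 and 12 peaks lay in the KO RNase R- lists and 0 and 1 in the KO RNase R+ lists, while all members went from 1457 and 1802 to 382 and 368. Whether these genes differ from the members at large was not tested, and the counts are small. Pantr1 had 13.3 and 9.71 without RNase R at the purine run printed above. Sox2ot, which spans Sox2, held 9 regions, with 9.49 the highest fold. Foxd2os held 5 regions (39.3 per 100 kb), 1 of them in both KO RNase R- lists with 7.36 and 7.43. Halr1 of the Hoxa cluster had 12.7 in KO RNase R- replicate 2 only, and Hotair of the Hoxc cluster had 6.98 in replicate 1 only. Over the 4 lists WT peaks were found in Snhg14, Dleu2, Pvt1 and Sox2ot, 1 gene per list.

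Several genes held clusters of regions. Gm41335 held the most, 22 regions over 541452 bp (4.06 per 100 kb), with 13, 9, 6, 6, 3, 3, 0 and 1 peaks in the 8 lists. D030024E09Rik (12 regions) and Pvt1 lie on the same chromosome, and the 3 fall within chr15:61534676-63718289. In Gm41335 2.44% of peaks had a raised expected level and in D030024E09Rik 0%. A second kind of cluster had many: 77.2% in Gm26804 (15 regions, 14.6 per 100 kb), 75.0% in Gm21847 (10 regions), 44.4% in Gm26624 (10 regions) and 35.5% in C230088H06Rik (17 regions). Gm26573 had 18 regions and 18.4%. In these clusters the part of repeated sequence in the peaks was not tested.

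**Figure D3:**
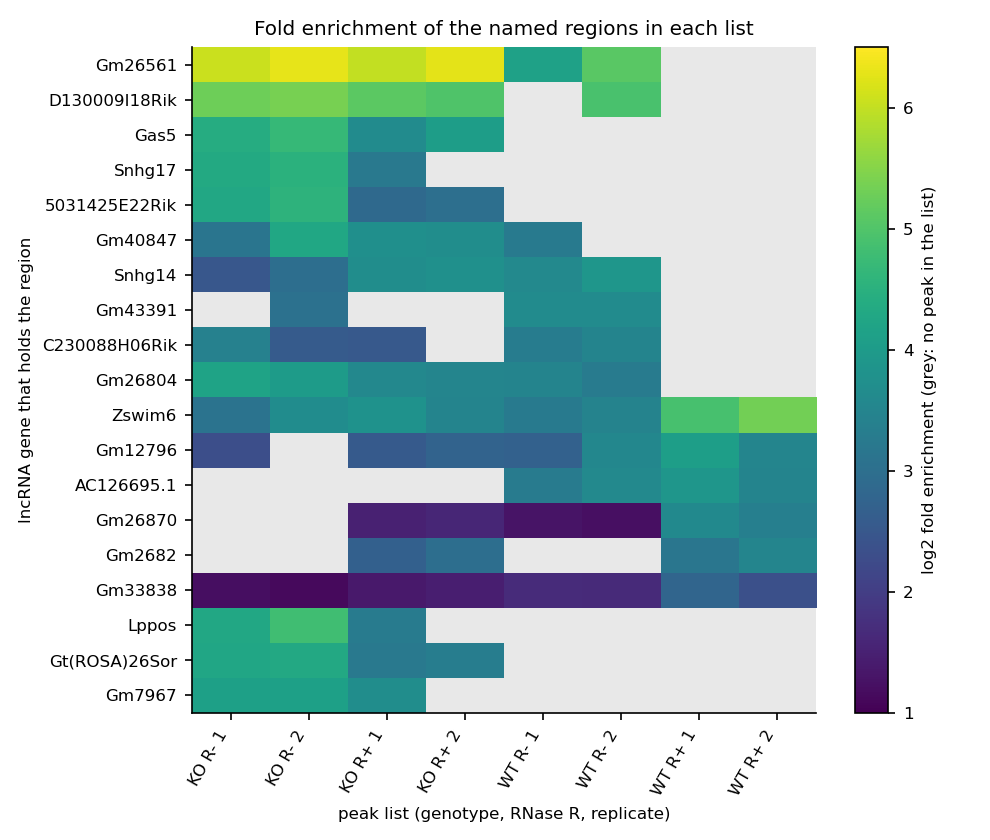
Log2 fold enrichment of the named regions (rows, by the lncRNA gene that holds them) in each of the 8 lists (columns), with grey where the list has no peak. Gm26561 is the highest in the 6 lists in which it was called, and only Zswim6 and Gm33838 have a value in all 8.

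The highest folds among the members came from sequences with copies elsewhere. An intron region of Gm26561 (chr17:70963599-70964000) had 66.4 and 78.6 in KO RNase R-, 64.0 and 77.1 in KO RNase R+ and 17.8 and 34.2 in WT RNase R-. It had the highest fold among the members of each of these 6 lists. A search of the genome found 11 matches of at least 80 bp and 85% identity on 7 chromosomes, 1 of them in Lars2. D130009I18Rik (chr14:104715768-104716041) had 39.1, 41.1, 34.8 and 31.7 in the KO lists and 30.2 in WT RNase R- replicate 2, with 18 matches on 14 chromosomes at up to 99.6% identity. Of both, the windows are shown with cut sites in capitals. With copies this alike, filtered unique reads cannot settle which copy formed the hybrid. The search covered GRCm38 only, and copies outside this assembly were not counted.
Gm26561 chr17:70963643-70963843: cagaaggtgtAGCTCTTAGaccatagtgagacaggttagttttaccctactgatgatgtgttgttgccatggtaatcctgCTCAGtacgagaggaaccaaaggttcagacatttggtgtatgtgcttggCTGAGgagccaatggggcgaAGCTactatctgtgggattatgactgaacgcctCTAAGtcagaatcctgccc
D130009I18Rik chr14:104715810-104716010: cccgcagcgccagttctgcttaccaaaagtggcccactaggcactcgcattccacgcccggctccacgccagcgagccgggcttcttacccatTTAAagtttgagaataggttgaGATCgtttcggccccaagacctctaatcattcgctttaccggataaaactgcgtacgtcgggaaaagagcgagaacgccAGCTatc

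WT RNase R+ lists held only 14 and 19 members, and their regions had features of their own. An expected level over 3 times the background was found at 71.4% and 68.4% of them, 10 and 13 peaks, against 36.1% and 32% of all other peaks of these lists. In the KO RNase R- lists it was 3.71% and 3.77% against 3.85% and 3.86%. Over the 8 lists members exceeded other peaks by 11.6 ± 15.2 percentage points (6 of 8 positive; exact sign-flip p = 0.0312, adjusted 0.102, which fails the adjustment), and without the WT RNase R+ lists by 3.54 points (exact sign-flip p = 0.125). The restriction fragment at the summit was 1623.5 and 1656 bp at the median in WT RNase R+ and 214.5 to 283.5 bp in the other lists, against 92 bp for lncRNA DNA at large.

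Member fragments were longer than those at coding gene peaks in 8 of 8 lists, 1.15-fold on average (log2 0.21 ± 0.23, exact sign-flip p = 0.00781, adjusted 0.0339). In the KO RNase R- lists the medians were 242 and 249 bp against 229 and 233 bp. In the WT RNase R+ lists they were 1623.5 and 1656 bp against 1013 and 1226 bp. Without the WT RNase R+ lists, which hold 14 and 19 peaks, the difference was 0.09 on the log2 scale (exact sign-flip p = 0.0312), and without the peaks of raised expected level 0.13 (exact sign-flip p = 0.141). Whether fragment length affected recovery was not tested.

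**Figure D4:**
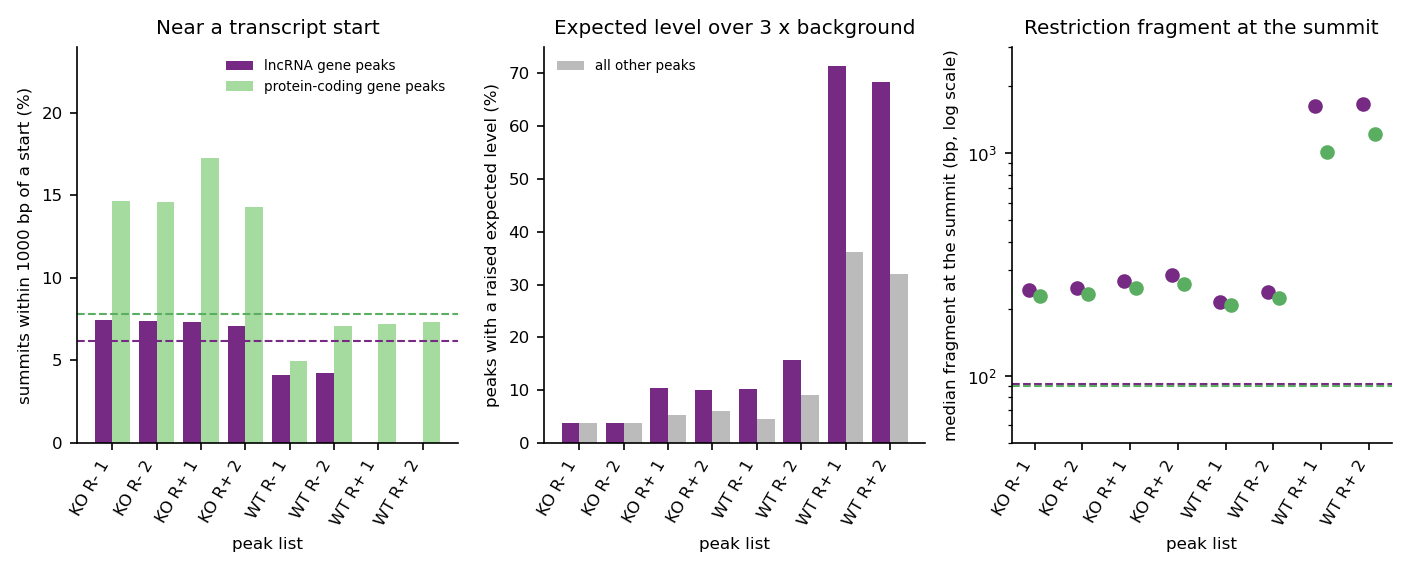
For members (purple) and for coding gene peaks (green) or all other peaks (grey), per list: percent of summits within 1000 bp of a transcript start, percent with an expected level over 3 times the background, and median restriction fragment at the summit in bp (log axis). Dashed lines are the values of the DNA of each class; the WT RNase R+ lists have no member near a start, the highest shares of raised levels and the longest fragments.

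GENCODE M21 gives the gene Zswim6 (minus strand) the type processed_transcript, and it was included by that type alone. Whether its RNA encodes a protein was not examined. A region of Zswim6 at chr13:107858209-107860042 was in all 8 lists. It had 8.51 and 12.8 in KO RNase R-, 13.9 and 11.1 in KO RNase R+, 9.66 and 11.1 in WT RNase R- and 29.6 and 40.05 in WT RNase R+, so the WT RNase R+ folds were the highest. The window has no cut site, lies in a fragment of 1591 bp and repeats a unit of 39 bases 5.15 times. No match was found elsewhere in the genome. Gm12796 (chr4:101314370-101314789) had 16.8 and 11.4 in WT RNase R+, 4.98 in KO RNase R- replicate 1, 5.89 and 6.73 in KO RNase R+ and 6.56 and 11.6 in WT RNase R-, in a fragment of 2194 bp with purine runs. The Zswim6 window is printed with cut sites in capitals, of which it has none, and the Gm12796 window with runs in capitals.
Zswim6 chr13:107858958-107859158: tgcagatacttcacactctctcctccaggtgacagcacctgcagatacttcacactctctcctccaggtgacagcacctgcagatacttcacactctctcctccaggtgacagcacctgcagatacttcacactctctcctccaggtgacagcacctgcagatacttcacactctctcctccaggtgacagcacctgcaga
Gm12796 chr4:101314524-101314724: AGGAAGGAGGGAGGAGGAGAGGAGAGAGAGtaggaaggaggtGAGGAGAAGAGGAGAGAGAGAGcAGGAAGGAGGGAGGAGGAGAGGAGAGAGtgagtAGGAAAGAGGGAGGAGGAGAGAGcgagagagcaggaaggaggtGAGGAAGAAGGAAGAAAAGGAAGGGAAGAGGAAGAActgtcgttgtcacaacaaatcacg

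The other leading WT RNase R+ regions were also of repeated DNA or long fragments. AC126695.1 had 14.8 and 11.2 in WT RNase R+ and 9.71 and 11.99 in WT RNase R-, with no KO peak and a fragment of 3419 bp. It was the 1 region in both WT RNase R+ lists and no KO RNase R+ list. Gm2682 had 8.95 and 11.4 in WT RNase R+ and 6.40 and 7.94 in KO RNase R+. Gm26870, with 84 matches elsewhere, had 12.2 and 10.3 in WT RNase R+ and 2.35 to 3.001 in KO RNase R+ and WT RNase R-, at an expected level up to 7337 times the background. Gm33838, the other region in all 8 lists, had 2.20 to 3.19 in the other 6 lists and 6.88 and 5.10 in WT RNase R+, at up to 9631 times the background. Of the 10 regions in both WT RNase R+ lists, 9 had a raised expected level and 9 a fragment of at least 1000 bp.

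Of the 5 leading regions of WT RNase R-, Gm26561 and Snhg14 are given above, and the 3 others also had matches elsewhere. Gm43391 had 12.6 and 12.6 in WT RNase R- and 8.29 in KO RNase R- replicate 2. C230088H06Rik had 9.95 and 11.1 in WT, 10.7 and 6.02 in KO RNase R- and 5.77 in KO RNase R+ replicate 1. Gm26804 had 11.2 and 9.73 in WT RNase R- and 18.3, 16.2, 11.9 and 11.3 in KO, with 39178 matches. Among the leading regions of KO RNase R+, Gm40847 had 8.85 and 19.5 in KO RNase R-, 13.3 and 13.03 in KO RNase R+ and 9.53 in WT RNase R- replicate 1. Its sequence had 31 matches elsewhere, all on 1 chromosome, at up to 99.4% identity.

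Members were less GC-rich than coding gene peaks. GC content within 150 bp of the summit was 42.7% and 42.6% in KO RNase R-, 44.9% and 44.0% in KO RNase R+, 43.1% and 43.2% in WT RNase R- and 48.1% and 48.1% in WT RNase R+. It was lower than at coding gene peaks in 8 of 8 lists, with a mean difference of -2.48 ± 1.35 percentage points (SD; exact sign-flip p = 0.00781, adjusted 0.0339). The DNA of the 2 classes differs in the same direction (42.1% and 43.1%). GC skew on the lncRNA strand was 0.0237 ± 0.0552 over the lists (exact sign-flip p = 0.398, adjusted 0.432). Median fold enrichment differed from that of all other peaks by -0.03 on the log2 scale (exact sign-flip p = 0.25, adjusted 0.361).

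Runs of purine or pyrimidine were measured after their frequency had been seen in the data, and their shares are given without a test. A run of at least 20 bases within 150 bp of the summit was in 71.9% and 69.3% of members in KO RNase R-, 66.0% and 65.5% in KO RNase R+, 54.5% and 46.7% in WT RNase R-, and 28.6% and 26.3% in WT RNase R+, against 8.44% of lncRNA DNA. The 4 groups did not overlap. Without peaks of raised expected level the RNase R difference in this share turned from -14.0 to 3.57 percentage points. Coding gene peaks had 56.2% and 56.1% in KO RNase R-, 49.8% and 51.0% in KO RNase R+, 50.2% and 45.5% in WT RNase R- and 36.1% and 29.3% in WT RNase R+. Peaks outside genes had 72.5% and 72.3% in KO RNase R- and 50.0% and 51.4% in WT RNase R+. The purine strand was the lncRNA's own strand in 43.2% to 49.6% of the members with a run on 1 strand in the 6 larger lists. None of the 4 cut sites can lie within such a run, since each holds both purines and pyrimidines.

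Among simple repeats, GAA repeats of at least 5 copies were at 8.24% and 8.88% of KO RNase R- members and at 12.6% and 17.9% in KO RNase R+, against 0.248% of lncRNA DNA. A or T runs of at least 12 bases went the other way in KO, at 13.5% and 14.5% of RNase R- members and 1.31% and 3.53% of RNase R+ members, against 3.42% of the DNA. Both repeats moved the same way outside lncRNA genes: in KO, GAA repeats were at 4.94% and 5.197% of coding gene peaks without RNase R and 8.28% and 11.6% with it, and A or T runs at 14.7% and 15.8%, then 2.55% and 1.57%. GA repeats of at least 8 copies were at 15.7%, 15.04%, 21.2% and 15.2% in KO and 4.89% and 4.85% in WT RNase R-. They were at 1.78% of lncRNA DNA. At coding gene peaks GA repeats were at 11.9%, 11.1%, 14.0% and 10.1% in KO and 4.20% and 3.79% in WT RNase R-. CA repeats were at 4.39% and 4.50% in KO RNase R- and 10.2% and 7.07% in KO RNase R+, against 3.79% of lncRNA DNA. At coding gene peaks CA repeats were at 3.97% and 3.91% in KO RNase R- and 6.79% and 6.98% in KO RNase R+. Of each member window, 61.2% to 75.5% on average was soft-masked as repeat, against 32.2% of lncRNA DNA. At coding gene peaks the averages were 49.9% to 70.3%, against 27.0% of coding DNA.

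**Figure D5:**
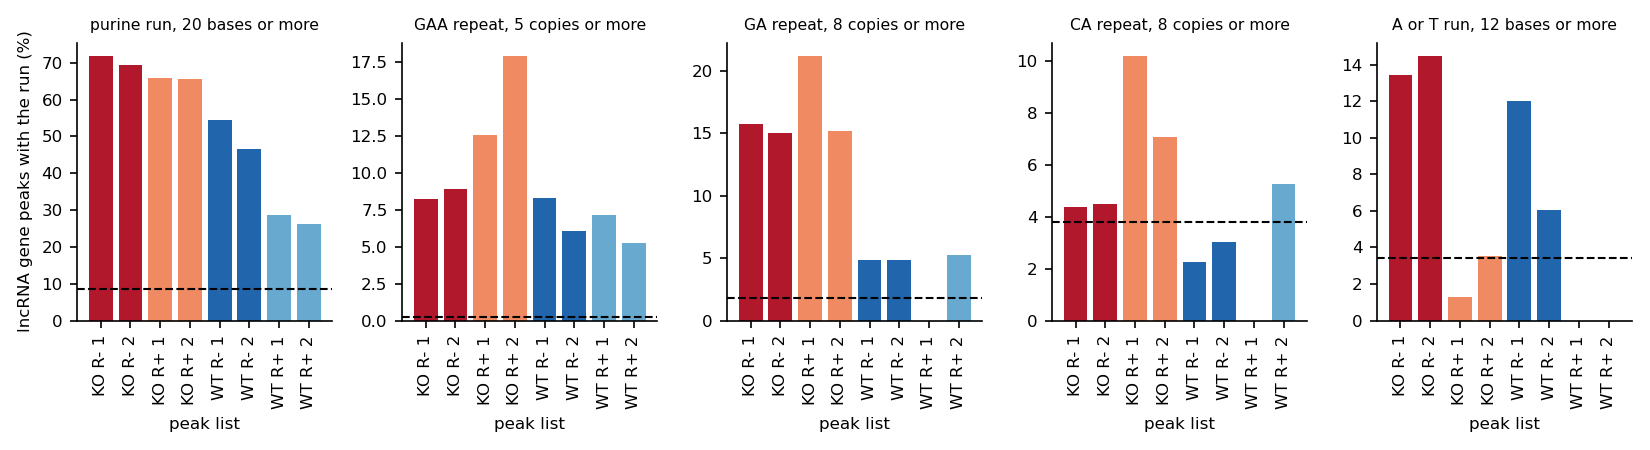
Percent of members in each of the 8 lists with a purine or pyrimidine run, a GAA, GA or CA repeat, or an A or T run within 150 bp of the summit; dashed lines are the shares in lncRNA DNA. In KO, A or T runs fill 13.5% and 14.5% of RNase R- members and 1.31% and 3.53% of RNase R+ members, while GAA repeats are at 8.24% and 8.88% against 12.6% and 17.9%.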

How the data were processed

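Peak lists of 8 immunoprecipitates were analysed; 8 inputs and the E. coli spike-in were not. Per the study's methods, the authors trimmed reads, aligned them to GRCm38 (mm10) with Bowtie2, removed duplicates, poorly matching and non-unique reads, and called peaks with MACS2 for each replicate at q 0.001. The submitters' processing notes also name SAMtools 1.1. The control given to MACS2 is not stated. In the deposited lists fold enrichment is a ratio, p and q are −log10 values and the score is the caller's integer, which was not used. Coverage and expected level were recovered from the deposited fold and −log10 p for 77297 of 77297 peaks (relative error under 0.0001). Read totals of the libraries were not used here.

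Peaks overlapping across lists were merged. Each list gave 1 value per measure, and tests were exact and two-sided: permutation within strata (36 arrangements, smallest p 0.0556) or sign-flip over 8 lists (smallest p 0.00781). For 2 lists against 2 the smallest p is 0.333. Scripts ran in Python 3.11.15 with numpy 2.4.6, pandas 2.3.3, scipy 1.17.1 and BLAST 2.17.0, and were tested on simulated data. Members and lists were chosen with earlier results of these data known. Named were the 5 strongest regions in both replicates of each group, those in all 8 lists, the 5 strongest near a start, the 10 genes with most regions, and lncRNA genes of the 4 lists of known role.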

Additional observations from a re-analysis of the deposited data

Results flagged for a closer look

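The share of peaks in lncRNA genes moved in opposite directions by treatment and by genotype. KO minus WT was -1.70 percentage points without RNase R, with both KO lists below both WT lists, and 0.395 points with RNase R, with both KO lists above. RNase R+ minus RNase R- was 0.489 points in KO, where both RNase R+ lists were above, and -1.60 points in WT, where both were below. The difference between the pairs of effects was not tested, and the WT RNase R+ shares rest on 14 and 19 peaks.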

How the results depend on the processing

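Fewer peaks reversed some small differences. With a fold of at least 10, the share difference with RNase R became 0.762 points and the density ratio of lncRNA to coding DNA -0.17 (log2); the RNase R effect on peak numbers was -1.68 (log2, against -2.90), the raised-level difference was 8.49 points (exact p = 0.320) and the fragment difference 0.17 (exact p = 0.484). Without peaks of raised expected level, the genotype and RNase R effects on peak numbers were 4.60 and -3.72 (log2), the share difference between KO and WT became 0.985 points, the density ratios -0.30 against coding DNA and -0.22 against DNA outside genes, and the fragment difference 0.13 (exact p = 0.141); the RNase R difference in purine runs went from -14.0 to 3.57 points. GC skew turned to -0.0110 with lincRNA genes only and to -0.0043 without the WT RNase R+ lists, where the raised-level difference was 3.54 points (exact p = 0.125). The ratio against DNA outside genes passed the unadjusted threshold at a −log10 q of at least 5 (0.15, exact p = 0.00781), with lincRNA genes only (0.11, p = 0.0312) and without the WT RNase R+ lists (0.14, p = 0.0312). Leaving out each list in turn, the raised-level difference was 8.08 to 13.3 points (exact p 0.0312 to 0.0625, and over the threshold without any list but the KO RNase R- lists) and the ratio to coding DNA -0.0066 to 0.10, negative without WT RNase R- replicate 2. The cause of these changes was not tested. With the replicate block (exact sign-flip over 4 same-numbered pairs, smallest p 0.125), the genotype effect was 3.74 (p = 0.125), the RNase R effect -2.90 (p = 0.125), the share differences -0.652 and -0.558 points (p = 0.5) and the start difference 5.22 points (p = 0.125). The numbers only name the lists. The differences near starts and in GC content kept their direction and side of the threshold in all alternatives run. Merging peaks within 100 bp gave 2885 regions. The WT RNase R+ lists hold 14 and 19 members, which limits every share in them.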
